A study of Mus musculus with 161 samples.

Results

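The comparison concerned mouse embryonic stem cells (mESCs) in which CTCF lacking residues 13–33 of its N terminus, Δ(13–33), was the CTCF supplied, set against cells supplied with the full-length protein. The members were the 10 chromosome-conformation capture carbon copy (5C) libraries of the Δ(13–33) lines, 6 from clone 1 (line EN281.1) and 4 from clone 2 (line EN281.2), chosen by their labels, and the reference was 14 libraries of the full-length line EN133.10. The 24 libraries are part of 91 5C libraries in the series. The study's records name both clones EN281.2 in one place, and the labels were followed. All groups carried CTCF–AID, an endogenous CTCF fused to a degron that auxin removes, and a doxycycline (dox)-inducible TetO–CTCF cDNA transgene, and these 24 libraries came from cells given 500 µM auxin and 1 µg/ml dox for 4 days. Reference libraries with the same treatment came from lines whose transgene lacks residues 1–265, Δ(1–265) (EN186.4 and EN186.6), and from a full-length line with low expression (EN133.6), and 2 came from EN133.10 given auxin for 4 days without dox. The labels name no separate animals or donors, so the libraries of a group are replicates of 1 line, and p-values measure the spread between such libraries. Each Δ(13–33) group is 1 clone, and the amount of transgenic protein, measured by flow cytometry in the study, was not analysed here. A difference between clones, between amounts of protein and between the protein sequences therefore cannot be told apart within 1 line. The cells are male, so the region on the X chromosome is present as 1 copy.

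CTCF is a zinc-finger protein that binds DNA in an oriented way and is found at the borders of most topologically associating domains (TADs), the stretches of chromosome that contact themselves more than their neighbours. Cohesin, a ring-shaped complex that gathers DNA into loops, is held at CTCF sites in part through the N terminus of CTCF. PDS5 proteins are cohesin regulators that act on both the release and the movement of the ring. The comparison asks whether the short N-terminal stretch, which the study tested as a docking region for PDS5A, is needed for domain borders and loops in cells.

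The stretch removed from the cDNA is shown here as it stands in the genome, since it is the only difference the labels give between the transgenes. In the GENCODE annotation of mm9, codons 13 to 33 of Ctcf lie at chr8:108187699-108187761 on the plus strand, within coding exon 1, and cover 63 bases. Capitals mark the 21 codons and lower case the 12 bases on each side.
Ctcf codons 13 to 33: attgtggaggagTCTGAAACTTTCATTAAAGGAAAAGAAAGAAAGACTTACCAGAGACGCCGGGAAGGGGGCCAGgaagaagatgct

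The 5C primers cover 4.6 Mb of the X chromosome around Xist, at chrX:98831149-103431148 (mm9). Totals in the complete count matrices ran from 5262254 to 23096139 counts in 12 full-length libraries, from 8689471 to 20418070 in clone 1 and from 8324885 to 14284621 in clone 2, so the deletion libraries lay within the depth of the reference. The count matrices of the other 2 full-length libraries were incomplete, and only their corrected matrices were used. Libraries fall into 6 runs of consecutive library numbers, which the labels do not explain. Clone 1 has 2 libraries in each of runs 4, 5 and 6, clone 2 has 2 in each of runs 4 and 5, and the full-length line has 2 in each of these 3 runs and 8 in earlier ones. Where a comparison within these runs ended a call, that value is given for most of the calls named.

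The insulation score of a 20-kb bin compares contact across it, within 100 kb on each side, with the average of all bins, as a negative log2 value, so a high score means few contacts across the bin. Averaged over the 6 TAD boundaries of the region, neither deletion clone passed the test against the full-length line. The full-length libraries ran from 0.54 to 0.71 with a median of 0.60 (mean 0.61 ± 0.040, SD, n = 14). Clone 1 ran from 0.53 to 0.63 with a median of 0.57 (0.58 ± 0.039, n = 6), which is 94.9% of the full-length mean. The 4 libraries of clone 2 gave 0.59, 0.60, 0.63 and 0.63 (0.61 ± 0.019), which is 101.1% of it. In clone 1, 4 of 6 libraries, and in clone 2 all 4, lay inside the full-length range. The difference was −0.031 in clone 1 (p = 0.126, two-sided exact permutation test) and 0.0065 in clone 2 (p = 0.754, same test), and within runs it was −0.030 (p = 0.0648) and −0.0054 (p = 0.722) by the exact test.

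A single boundary fell in clone 1. At boundary 5 (chrX:101211149-101231148), which separates the domain of Xist's neighbours Zcchc13 and Rlim from the long domain that starts at C77370, insulation was lower in every library of clone 1. Rlim, which lies 34.5 kb away and is the gene nearest to that bin, encodes a ubiquitin ligase that promotes Xist expression. The full-length libraries ran from 0.63 to 0.79, with a median of 0.71. Clone 1 ran from 0.53 to 0.61, with a median of 0.58. All 6 libraries of clone 1 were below all 14 of the full-length line, with no overlap. The mean fell by 0.13 (0.58 ± 0.032 against 0.71 ± 0.050), which is 1.098 times the contact across the boundary and 81.05% of the full-length score. The p-value, 2.58e-05 by the exact permutation test, is the smallest this design can give, and the adjusted p over the 6 boundaries was 0.000155.

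That was 1 of 6 boundaries called in clone 1 (16.7%). Each run held the same order. In run 4 the 2 full-length libraries averaged 0.69 and the 2 of clone 1 averaged 0.58, in run 5 they averaged 0.76 and 0.61, and in run 6 they averaged 0.63 and 0.54. The difference within runs was −0.12, with p = 0.00926, the smallest that an exact test within runs allows here, and an adjusted p of 0.0556.

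Clone 2 did not share this value. Its 4 libraries gave 0.71, 0.73, 0.65 and 0.69 at boundary 5, all inside the full-length range. The difference from the full-length line was −0.013 (0.70 ± 0.032, adjusted p = 0.970, exact permutation test). The clones themselves differed, by 0.12 (p = 0.00476, adjusted p = 0.0286, exact permutation test), with all 4 libraries of clone 2 above all 6 of clone 1. Whether equal replicate numbers mark pairs of the 2 clones is not given by the labels. With such libraries taken as pairs, the exact test within the 4 pairs gave p = 0.125, the smallest that 4 pairs allow. The call is thus not reached in the paired form.

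**Figure D1:**
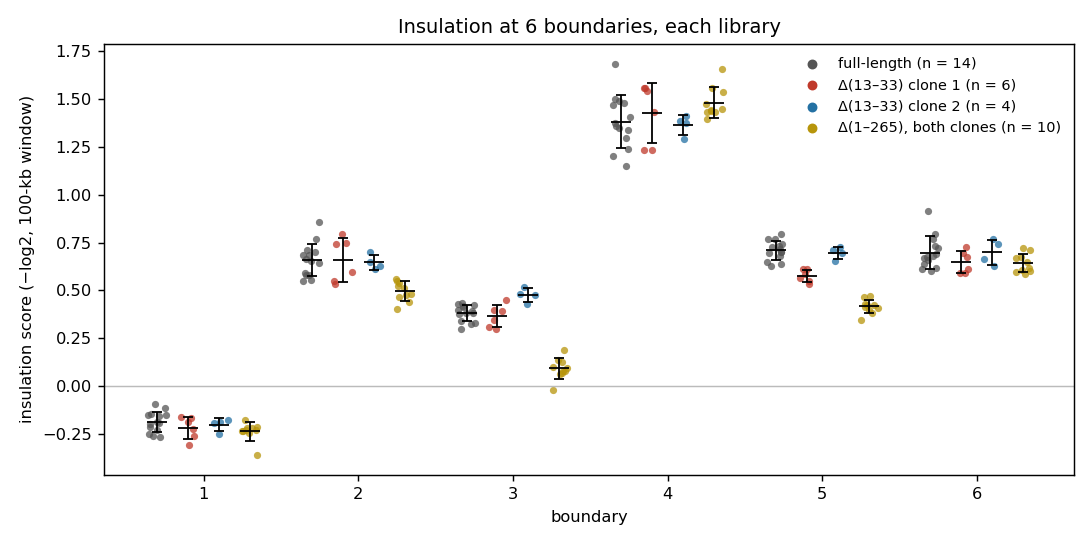
Insulation score (minus log2, 100-kb window) at each of the 6 boundaries, with 1 point per library and bars for the mean ± SD, for the full-length line (n = 14), the Δ(13–33) clones 1 (n = 6) and 2 (n = 4) and the Δ(1–265) lines (n = 10). At boundary 5 the points of clone 1 lie below all full-length points, those of clone 2 lie among them, and those of Δ(1–265) lie lowest.

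Boundary 3 (chrX:100451149-100471148, inside 4930519F16Rik) moved the other way, and in clone 2. This border parts the domain of Cited1, Hdac8 and Phka1 from the short one that holds Cdx4, Chic1 and Tsx. Full-length libraries ran from 0.30 to 0.44, with a median of 0.39. The 4 libraries of clone 2 gave 0.48, 0.43, 0.52 and 0.47, and 3 of them were above all 14 full-length libraries. The rise was 0.094 (0.48 ± 0.037 against 0.38 ± 0.043), or 0.937 times the contact across the border, with p = 0.00098 and adjusted p = 0.00588 by the exact permutation test, again 1 of 6 boundaries (16.7%). Within runs it was 0.10 with p = 0.0556, the smallest that exact test allows, and from the raw counts the sign turned, to −0.12. Clone 1 ran from 0.30 to 0.45, with a median of 0.37, across the full-length range (difference −0.016, adjusted p = 0.631, exact permutation test).

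The 200-base FLAG–CTCF peak inside boundary 3 is printed because it is the only peak that the deposited list gives in that boundary bin. The list comes from cells with the full-length transgene, and binding of the Δ(13–33) protein was not analysed here. The peak lies at chrX:100455304-100455503 (mm9), in 4930519F16Rik and in no exon, at −5.7 kb from the centre of the bin. Capitals mark the match to the core of the CTCF motif, searched as CCA, AG and GGC with 2 free bases between each, here on the plus strand.
boundary 3 peak 1: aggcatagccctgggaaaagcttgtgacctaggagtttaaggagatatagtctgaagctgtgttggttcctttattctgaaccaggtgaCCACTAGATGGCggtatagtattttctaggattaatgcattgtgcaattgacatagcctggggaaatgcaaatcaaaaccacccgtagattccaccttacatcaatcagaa

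The motif was searched on both strands, and it was shortened to these 12 letters after the peaks had been read. It occurs in 31 of the 78 peaks of the region (39.7%) and in 1.39% of the 23000 windows of the same length that tile it. A match is a description of the sequence and no site in itself. Boundaries 2, 4 and 6 hold 3 peaks each and boundary 1 holds 1, whereas the bin of boundary 5 holds 0 and its nearest peak is at −33.9 kb from its centre, in the Rlim bin.

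The other 4 boundaries were called in neither clone. Boundary 1 (in Nhsl2) has a negative score in all 3 lines, −0.18 ± 0.054 in the full-length line, −0.22 ± 0.057 in clone 1 and −0.20 ± 0.033 in clone 2. Boundary 2, which is 11.6 kb from Cited1, gave 0.66 ± 0.086, 0.66 ± 0.11 and 0.65 ± 0.038 in the same order. Boundary 4, within the overlapping noncoding genes Xist and Tsix, was the strongest, at 1.38 ± 0.14, 1.42 ± 0.16 and 1.36 ± 0.051. Boundary 6, at Atp7a and Cox7b, gave 0.70 ± 0.084, 0.65 ± 0.059 and 0.70 ± 0.066. Differences ran from −0.049 to 0.045 in clone 1 (adjusted p 0.495 to 0.982) and from −0.016 to 0.0017 in clone 2 (adjusted p 0.970 for each), by the exact permutation test.

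The lines with the whole N terminus removed, Δ(1–265), give the scale of these differences. Their 10 libraries (6 of EN186.4 and 4 of EN186.6) had the same treatment. The 10 Δ(13–33) libraries had a mean insulation of 0.59 ± 0.036 and the 10 Δ(1–265) libraries 0.48 ± 0.020, a difference of 0.11 with all 10 above all 10 (p = 1e-05, permutation test with 100000 resamples, the smallest it can give). Each arm pools the libraries of 2 clones, so this p-value and those by boundary measure the spread between libraries and not between clones. By boundary, 3 of 6 (50.0%) were called. Insulation was higher by 0.32 at boundary 3 and by 0.21 at boundary 5 (adjusted p = 3e-05 for each, permutation test), with no overlap, and by 0.16 at boundary 2 (adjusted p = 0.00024, permutation test), with 8 of 10 above. From the raw counts the difference at boundary 3 was 0.10, and its call was lost (adjusted p = 0.235, permutation test). Boundaries 1 and 6 differed by 0.025 and 0.026 and boundary 4 by −0.079, and none of these passed (adjusted p 0.158 to 0.321, permutation test). Within runs boundary 4 passed, with a difference of −0.11 (adjusted p = 0.0286, exact permutation test).

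Full-length lines with less transgene give a further reference at boundary 5. The full-length line with low expression (EN133.6, n = 2) had 0.59 ± 0.0049 there, beside the 0.58 of clone 1, and the full-length line without dox (n = 2) had 0.36 ± 0.033. The Δ(1–265) lines had 0.40 ± 0.030 and 0.44 ± 0.029. At boundary 3 the same reference lines had 0.29 ± 0.040 and 0.067 ± 0.0085, both below the 0.37 of clone 1. The groups of 2 libraries were not tested, and the part that transgene amount has in the value of clone 1 was not tested.

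Along the whole region, insulation was scored at 193 bins and fitted with limma over 34 libraries (the 24 and the 10 of Δ(1–265)). Clone 1 had 36 bins past an adjusted p of 0.05 (18.7%), 23 higher and 13 lower, and clone 2 had 15 (7.77%), 10 higher and 5 lower. Neighbouring bins share contacts of their windows, so they are not separate observations. The called bins formed 7 higher and 4 lower stretches in clone 1, and 5 and 3 in clone 2. The Δ(1–265) clones, compared with the same full-length libraries, had 107 and 99 bins (55.4% and 51.3%). The largest differences in clone 1 and clone 2 were 0.16 and 0.18 in absolute size, and the median over all bins was −0.0003 and 0.0040.

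The lower bins of clone 1 centre on boundary 5. In all, 7 consecutive bins with overlapping windows, from 20 kb before it to 100 kb after it, were lower, by values from −0.096 to −0.15. A further 4 bins of the lower group lay in the domain before it. With a block for the run, the bin 60 kb after the boundary gave −0.083 and was not called (limma adjusted p = 0.0777). From the raw counts the bins 60 and 80 kb after it were not called (limma adjusted p = 0.337 and 0.277). The bin 80 kb after the boundary, in C77370 and with a FLAG–CTCF peak, fell from 0.64 ± 0.080 to 0.48 ± 0.050 (difference −0.15, SE 0.030, limma adjusted p = 0.000489). The next bin after the boundary fell from 0.80 ± 0.038 to 0.68 ± 0.039 (−0.12, SE 0.022, limma adjusted p = 0.000202). The Rlim bin, 40 kb before the boundary and holding its nearest peaks, gave −0.053 (limma adjusted p = 0.144).

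In clone 2 the same 7 bins gave differences from −0.031 to 0.060 and none was called. The test of clone 2 against clone 1 called 12 bins of the region (6.22%), 9 higher and 3 lower, and 4 of them were the bins from the boundary to 60 kb after it (differences 0.12 to 0.18). The 3 lower ones lay 40 to 80 kb after boundary 3, in and beside Cdx4, a homeobox gene (−0.16 to −0.17). Boundary 3 itself was higher in clone 2 than in clone 1, by 0.11, in this fit, whereas the exact permutation test over the 6 boundaries gave an adjusted p of 0.0571.

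**Figure D2:**
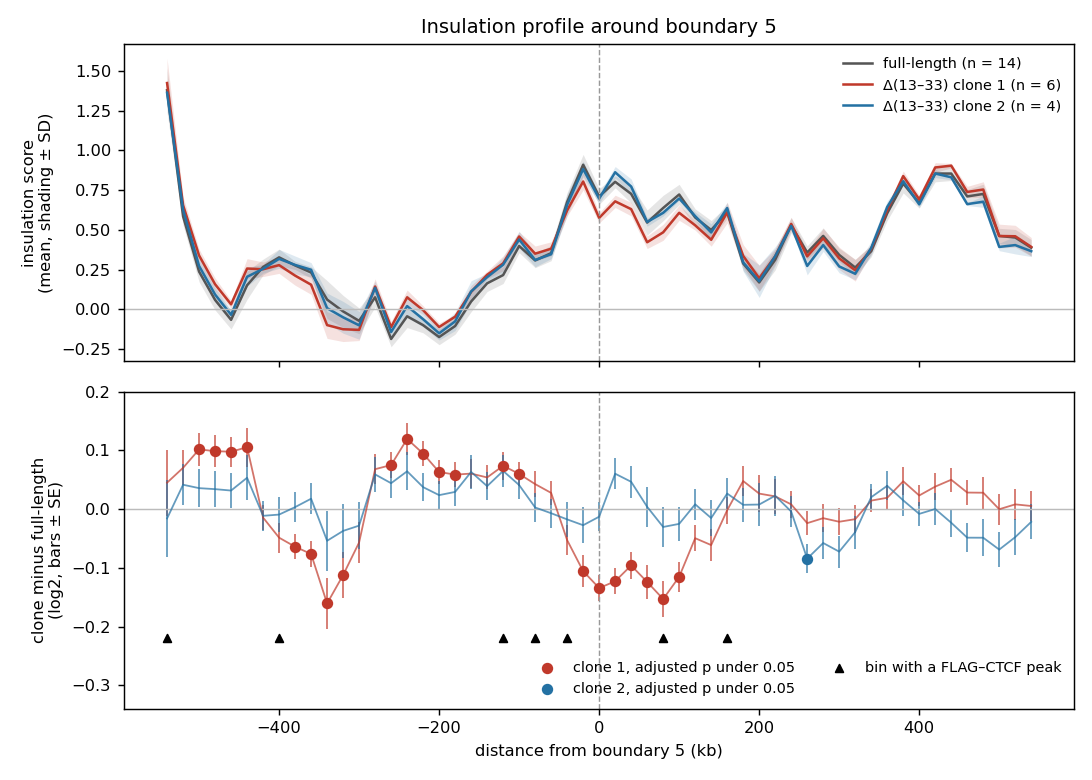
Insulation score by distance from boundary 5 in kb, above as group means with shading for ± SD and below as each clone minus the full-length line in log2 with bars for ± SE. Filled points mark bins with a limma adjusted p under 0.05, and triangles mark bins with a FLAG–CTCF peak. Clone 1 runs below the full-length line from −20 to 100 kb, while clone 2 has no filled point there.

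The domain before boundary 5, between Xist and Rlim, held 11 of the 23 bins that rose in clone 1 and 5 of the 13 that fell, while 26 of the 193 scored bins lie in it. Bins 40 and 100 kb after the Xist/Tsix boundary rose by 0.10 and 0.11 (limma adjusted p = 0.0101 and 0.0242), and with a block for the run the second gave 0.055 and was not called (limma adjusted p = 0.173). In clone 2 these bins gave 0.036 and 0.053, and neither was called.

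Phka1, a phosphorylase kinase subunit gene in the domain after boundary 2, was called in both clones. The bin 340 kb after boundary 2 rose from −0.086 ± 0.062 to 0.068 ± 0.040 in clone 1 (0.15, SE 0.025, limma adjusted p = 4.49e-05), and in clone 2 it rose by 0.097 (limma adjusted p = 0.0327). In clone 2 the largest rise was 400 kb after the boundary, from −0.28 ± 0.043 to −0.13 ± 0.056 (0.15, SE 0.028, limma adjusted p = 0.000697), with all 4 libraries above all 14. In clone 1 this bin rose by 0.097 (limma adjusted p = 0.0061). With a block for the run it was the 1 bin still called in clone 2, so the bin 340 kb after the boundary was then not called in that clone. Both clones share the full-length libraries, so these are not independent of each other.

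The other bins of clone 2 lay elsewhere. A bin near Magee1, 780 kb before boundary 6, rose from 0.0020 ± 0.048 to 0.14 ± 0.045 (limma adjusted p = 0.00347), and bins in 8030474K03Rik, 180 and 160 kb before boundary 1, rose by 0.13 and 0.12 (limma adjusted p = 0.0327 for each). At and beside Magee2, a MAGE-family gene, 3 neighbouring bins fell by 0.18, 0.14 and 0.12 (limma adjusted p 0.00682 to 0.0188). In clone 1 they gave −0.094, −0.091 and −0.014, of which the second, in Magee2, was called (limma adjusted p = 0.0298). A bin near Fgf16 fell by 0.11 in clone 2 (limma adjusted p = 0.0367). With a block for the run, none of these bins of clone 2 was called. The values were then 0.10 near Magee1, 0.065 and 0.063 in 8030474K03Rik, −0.14, −0.099 and −0.10 at Magee2 and −0.055 near Fgf16 (limma adjusted p 0.0742 to 0.303).

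Contacts were then averaged over the 7 segments that the 6 boundaries cut, within each and between each pair, as log2 of observed over expected contact at the same distance. Of the 28 blocks, 3 were called in clone 1 (10.7%). Contact between segments 5 and 6, the domains on either side of boundary 5, ran from −0.17 to −0.073 in the full-length line (median −0.12) and from −0.065 to −0.038 in clone 1 (median −0.052). All 6 libraries of clone 1 were above all 14, by a mean of 0.076, or 1.05 times the contact (adjusted p = 0.00145, exact permutation test). Within runs the difference was 0.068 (p = 0.00926, the smallest the exact test allows) and was not called (adjusted p = 0.173). The 4 libraries of clone 2 gave −0.12, −0.12, −0.093 and −0.092, inside the full-length range.

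The other called blocks of clone 1 involve segment 1, the domain of Ogt and Cxcr3 at the near end of the region. Its contact with segment 5 fell from −0.32 ± 0.085 to −0.48 ± 0.046 (−0.16, adjusted p = 0.00722, exact permutation test), with 5 of 6 below all full-length libraries. Contact within it fell from 0.49 ± 0.036 to 0.44 ± 0.012 (−0.059, adjusted p = 0.0125, exact permutation test), again 5 of 6. Within runs the difference with segment 5 was −0.16 and that within segment 1 was −0.027 (adjusted p = 0.173 for each, exact permutation test). Contact between segments 3 and 5 gave −0.10 (adjusted p = 0.0524, exact permutation test). All 3 calls were lost when the median over primer pairs, the median of a block, the raw counts, or a block for the run or the replicate number was used, and with raw counts the sign within segment 1 turned, to 0.023. With a block for the run, the smallest p of the exact test (0.00926) cannot pass the adjustment for a single block.

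No block passed in clone 2 (0.0%). By the exact permutation test 8 of 28 had an unadjusted p under 0.05, and no other tool was run on blocks. The lowest were contact between segments 1 and 7 (0.10) and between segments 2 and 5 (−0.14), each with an adjusted p of 0.101 by the exact permutation test. Between the clones, 3 of 28 (10.7%) were called. Contact of clone 2 minus clone 1 was −0.056 between segments 5 and 6, −0.14 between segments 2 and 4, and 0.084 within segment 4, the short domain of Cdx4, Chic1 and Tsx with parts of Xist and Tsix (adjusted p = 0.0444 for each, exact permutation test, no overlap of the clones, and p = 0.125 in the exact paired test, the smallest it allows).

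**Figure D3:**
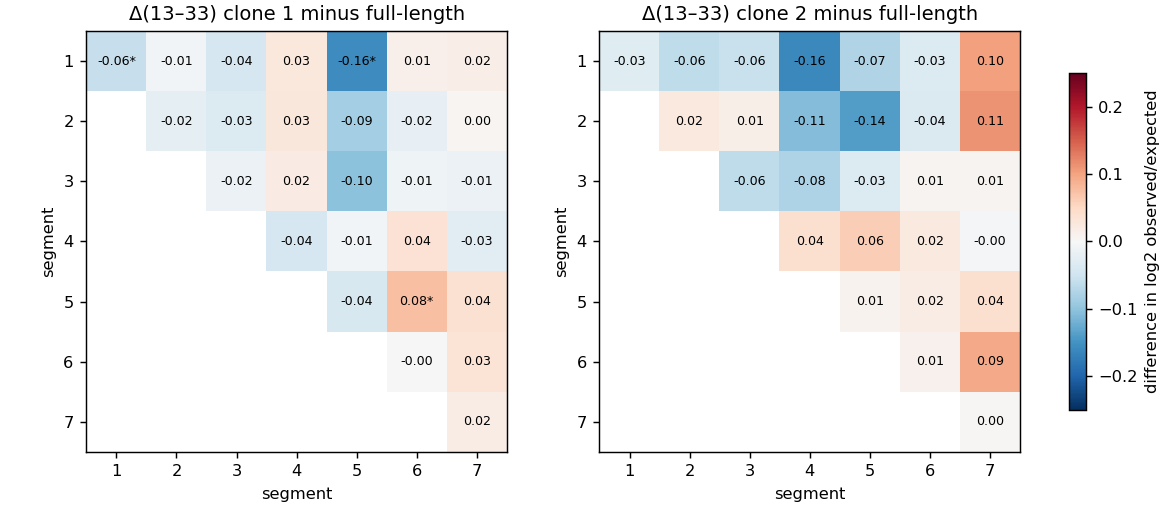
Difference in log2 observed over expected contact, clone minus full-length line, within and between the 7 segments (both axes) for clone 1 and clone 2, with colour and number for the same value and asterisks for adjusted p under 0.05. The 3 asterisks are in clone 1, at segment 1, segments 1 and 5, and segments 5 and 6.

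The change across boundary 5 in clone 1 was also read by the separation of the bins, in 5 ranges chosen after the data had been seen. Across the boundary, contact in clone 1 was higher in each range. It was higher by 0.072 at 40 to 100 kb, by 0.16 at 100 to 200 kb, by 0.18 at 200 to 400 kb, by 0.12 at 400 to 800 kb and by 0.062 beyond 800 kb. The ranges up to 200 kb reuse contacts that the score at boundary 5 is made of. All 5 ranges are parts of the block between segments 5 and 6. They describe those results and are given with no test. From 100 to 200 kb the level rose from −0.75 ± 0.065 to −0.59 ± 0.036, over 30 bin pairs, with 5 of 6 libraries above all 14. Within runs the 5 differences were 0.069, 0.13, 0.10, 0.095 and 0.061. In clone 2 they were −0.032, −0.017, −0.035, −0.027 and 0.030.

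Single contacts were tested over 17023 pairs of bins with limma. In clone 1, in clone 2 and between the clones, 0 passed (0.0% in each), and edgeR on the counts called 1, 0 and 0. In the same order, 1281, 817 and 796 pairs (7.53%, 4.8% and 4.68%) had an unadjusted limma p under 0.05. The Δ(1–265) clones had 585 and 449 (3.44% and 2.64%) in the same fit. The median SE of a pair was 0.27 in clone 1 and 0.32 in clone 2 on the log2 scale, and single contacts that changed by several times their SE did not pass the adjustment over all pairs.

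Among pairs with the lowest p that fell in clone 1, contact between the Xist/Tsix boundary bin and the Rlim bin joins peaks at both ends. These bins are 500 kb apart and bound the domain before boundary 5. Full-length libraries had a log2 observed over expected between 1.14 and 1.67, with a median of 1.33. Clone 1 ran from 0.52 to 1.14, with a median of 0.96, and all 6 were below all 14. The pair was picked for its low p in clone 1, which favours such a separation, so the separation is no support in itself. The fall was 0.45 (0.90 ± 0.22 against 1.35 ± 0.16, SE 0.093), with a limma adjusted p of 0.191, so it did not pass. The 4 libraries of clone 2 had 1.29, 1.19, 1.42 and 1.30, within the full-length range, and the Δ(1–265) clones had 0.72 ± 0.18 and 0.89 ± 0.26.

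The peaks at both ends that match the motif are printed, since the contact joins them. In the Rlim bin, 1 of 3 peaks matches, at chrX:101185864-101186063 (mm9, plus strand shown), in no gene and at −35.2 kb from the centre of boundary 5. In the Xist/Tsix bin 2 of 3 match, at chrX:100676984-100677183, in exons of both Tsix and Xist, and at chrX:100679482-100679681, in an exon of Tsix. The match in the Rlim bin is on the minus strand, and both in the Xist/Tsix bin are on the plus strand, so the matches at both ends face each other. Capitals mark them.
Rlim peak 1: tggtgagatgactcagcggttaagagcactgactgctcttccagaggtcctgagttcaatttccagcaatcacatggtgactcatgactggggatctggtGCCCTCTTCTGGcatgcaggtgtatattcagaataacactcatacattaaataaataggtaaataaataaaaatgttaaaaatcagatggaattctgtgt
Xist-Tsix peak 2: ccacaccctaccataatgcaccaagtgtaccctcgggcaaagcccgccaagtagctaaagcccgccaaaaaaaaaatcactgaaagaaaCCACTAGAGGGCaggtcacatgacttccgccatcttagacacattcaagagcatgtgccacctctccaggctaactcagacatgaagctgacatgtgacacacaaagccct
Xist-Tsix peak 3: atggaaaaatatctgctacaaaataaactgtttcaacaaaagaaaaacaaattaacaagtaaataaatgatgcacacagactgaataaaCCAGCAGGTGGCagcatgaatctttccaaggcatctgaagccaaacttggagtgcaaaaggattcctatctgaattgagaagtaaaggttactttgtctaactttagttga

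**Figure D4:**
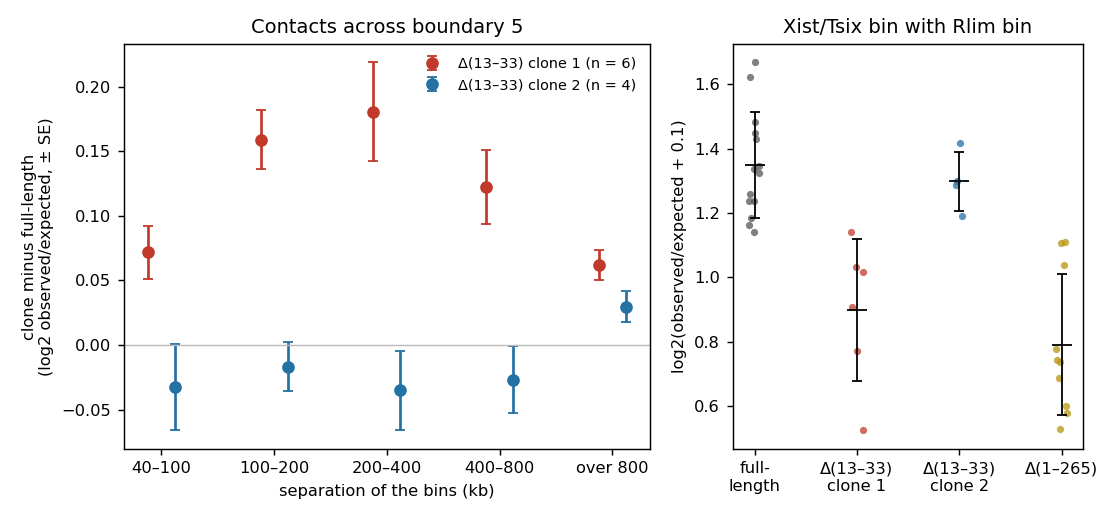
Left, difference in contact across boundary 5 (log2 observed over expected, clone minus full-length line, bars ± SE) by separation of the bins in kb. Right, log2 of observed over expected plus 0.1 for the Xist/Tsix bin with the Rlim bin, 1 point per library with mean ± SD. Clone 1 is above 0 in all 5 ranges on the left and below the full-length libraries on the right, where clone 2 lies among them.

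In clone 2, the pair with the lowest p that rose and had peaks at both ends joins the bin of boundary 3 and a Tsix bin 180 kb away. Full-length libraries ran from 1.63 to 2.11, with a median of 1.86, and clone 2 had 2.08, 2.04, 2.30 and 2.34. The difference of 0.32 (SE 0.075) had a limma adjusted p of 0.600, and 2 of 4 libraries were above all 14. Clone 1 had 2.05 ± 0.092, and the Δ(1–265) clones 1.09 ± 0.069 and 1.14 ± 0.12. The pair was picked for its rise in clone 2, so the place of clone 2 in or above the full-length range follows from that choice. Clone 1 was not part of the choice and ran from 1.93 to 2.15, but it is set against the same full-length libraries.

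Contact between bins that both hold a FLAG–CTCF peak was averaged over 344 pairs within a limited range of separation. These are not all the pairs that the 54 bins with a peak form. Contact was 0.22 ± 0.047 in the full-length line, 0.18 ± 0.050 in clone 1 and 0.20 ± 0.038 in clone 2, on the log2 scale. The difference was −0.037 in clone 1 (p = 0.127) and −0.017 in clone 2 (p = 0.553), by the exact permutation test. Within runs these values were −0.010 and 0.020.

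Contact by distance did not pass in either clone in any of the 7 bands (0.0%). By the exact permutation test 1 band in clone 1 and 3 in clone 2 had an unadjusted p under 0.05, and no other tool was run on bands. Between 200 and 400 kb contact was lower by 0.058 in clone 1 (adjusted p = 0.175) and by 0.077 in clone 2 (adjusted p = 0.106, exact permutation test for both). Beyond 3200 kb it was higher by 0.21 and 0.36 (adjusted p = 0.296 and 0.106, exact permutation test), and within runs by 0.039 and −0.023. This level differed between runs. The full-length libraries averaged −2.56 beyond 3200 kb in run 5 and −3.52 in run 6, and clone 1 averaged −2.68 and −3.62 in the same runs.

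**Figure D5:**
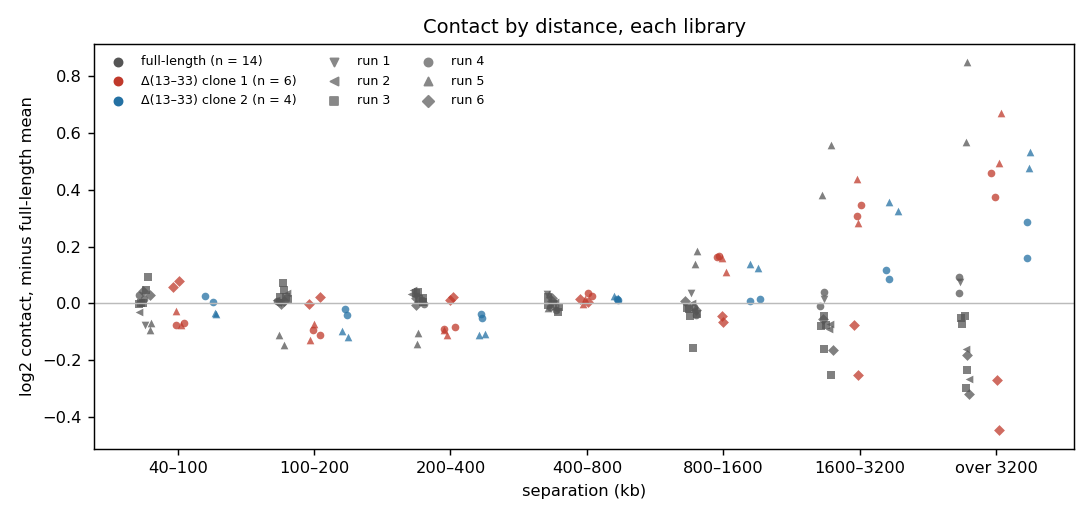
Log2 contact in 7 bands of separation (kb), each library minus the mean of the full-length line, with colours for the lines and marker shapes for the 6 runs of library numbers. Beyond 3200 kb the points of run 5 lie high and those of run 6 lie low in both the full-length line and clone 1.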

How the data were processed

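Per library, the authors deposited the count of reads of every primer pair on mm9, unnormalized, and a matrix of the signal left after iterative correction. The FLAG–CTCF peak list, from the full-length transgene, gives 200-base intervals without a score. Corrected values were averaged in 20-kb bins. Expected contact was taken per library and distance, from 40 kb upwards. Single bin pairs were log2(observed/expected + 0.1) with at least 4 primer pairs.

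Libraries were grouped by the labels. Boundaries (6), blocks (28), bands (7) and single values were compared with two-sided exact permutation tests (100000 resamples with at least 10 per group), adjusted within each family by Benjamini-Hochberg. Profile bins and bin pairs were fitted with limma 3.58.1 in R 4.3.3 over 34 libraries, with edgeR 4.0.16 on the deposited counts as alternative (mean count of at least 10), and the fits were tested on simulated data. Named bins are the 5 called with the largest difference in each direction, and named bin pairs the 3 with the lowest p, of which some are not reported here. Of 231 pairs of libraries, none agreed within sampling noise. Deviations of clone 1 and clone 2 libraries with equal replicate numbers correlated at 0.119 to 0.363. Those of the same run with other numbers correlated at 0.123 to 0.337, so the correlation does not single out equal numbers. Full-length libraries with the number of a clone library correlated with it at −0.303 to 0.466 in other runs. In the same run they correlated at 0.128 to 0.544. Comparisons of either clone share the full-length libraries. The comparison, lists and tests were chosen with earlier results of these data known. Other data of the series were not used here.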

Additional observations from a re-analysis of the deposited data

Results flagged for a closer look

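In 3 cases a library stood apart from the rest of its clone, out of 86 sets of a clone and a measure, where chance flags about 1 in 20. Contact between segments 2 and 6 was −0.11 in replicate 5 of clone 1, with the next library at −0.22. Contact within segment 1 was 0.52 in replicate 2 of clone 2, with the next at 0.45. Contact between CTCF peak bins was 0.14 in replicate 4 of clone 2, with the next at 0.21.

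The clones differed from each other, as clone 2 minus clone 1, by 0.12 at boundary 5 (adjusted p = 0.0286), by −0.14 in contact between segments 2 and 4, by 0.084 within segment 4 and by −0.056 between segments 5 and 6 (adjusted p = 0.0444 for each, exact permutation test). Along the profile 12 bins differed between the clones in the limma fit, 15 with replicate numbers as a block, 2 with raw counts and 4 to 16 with 1 library left out. What separates the clones was not tested.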

How the results depend on the processing

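Lower insulation at boundary 5 in clone 1 kept its direction under every alternative tried and its call under all but the block for runs of library numbers, and with 1 library left out the difference ran from −0.14 to −0.13. With that block its p was the smallest the exact test allows (0.00926), and a single boundary could not pass (adjusted p = 0.0556). The higher value at boundary 3 in clone 2 was less settled, with a range of 0.079 to 0.11 with 1 library left out. In clone 2, 0 boundaries were called with a window of 200 kb, the median over primer pairs, raw counts and the bin directly upstream. Both blocks also left 0, but the block for runs could call none, as the smallest p of its exact test is 0.0556. With the replicate block boundary 3 had p = 0.0278 and adjusted p = 0.0833 (exact permutation test). Leaving out a library gave 1218 values, of which 1154 kept direction and call, and the other settings gave 601, of which 449 did. The changes below are clone minus full-length line unless Δ(1–265) is named, in log2, and their cause was not tested. None of the boundaries, blocks or bands whose sign turned, apart from boundary 3 in clone 2 and segment 1 in clone 1, was called in the main comparison.

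With a window of 200 kb the sign turned at boundaries 1 and 4 in clone 1 (0.0068 and −0.011), at boundaries 1 and 5 in clone 2 (0.034 and 0.015) and at boundary 6 against Δ(1–265) (−0.038), where 5 boundaries were called, and the profile of clone 2 had 33 bins. With the median over primer pairs it turned at 40 to 100 kb (0.021 in clone 1, 0.012 in clone 2) and at boundary 4 in clone 2 (0.0052), with 0 blocks called in clone 1 and 3 bands in clone 2. With raw counts scaled to 1000000 it turned in segments 1 and 4 in clone 1 (0.023 and 0.094), and in clone 2 in the mean insulation (−0.016), at boundaries 1, 2, 3 and 6 (0.060, 0.044, −0.12 and −0.062), between segments 2 and 4 (0.028), in the second 8030474K03Rik bin (−0.00089), and at boundaries 1 and 6 against Δ(1–265) (−0.0073 and −0.089), where boundary 3 lost its call (0.10). Raw counts left 0 blocks and 5 profile bins in clone 1, and 0 profile bins and 1 bin pair in clone 2.

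With the log2 ratio of contacts within to across it turned at boundaries 2 and 4 in clone 1 (−0.036 and −0.031), at 1, 5 and 6 in clone 2 (0.026, 0.069 and −0.0085) and at 6 against Δ(1–265) (−0.015, 5 boundaries called). In the bin directly upstream, 2 boundaries were called in clone 1 and 5 against Δ(1–265), and the sign turned at boundary 2 in clone 1 (−0.055), 1 and 4 in clone 2 (0.0040 and 0.061) and 4 and 6 against Δ(1–265) (0.12 and −0.0055). With the median of a block or band, 0 blocks were called in clone 1, and 400 to 800 kb turned (−0.014 and −0.015). Without the full-length libraries of the other matrix layout boundary 6 in clone 2 turned (−0.0016). With the 24 libraries alone clone 2 had 9 profile bins. Between the clones, in alternatives added after the data had been seen, the 12 profile bins became 24 with a window of 200 kb, 2 with raw counts, 7 with the 24 libraries alone and 19 with the block by run. In clone 1, a pseudocount of 0.5 and edgeR each called 1 bin pair.

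The block by run of library numbers left 0 boundaries, 0 blocks and 19 profile bins in clone 1, turned boundary 2 in it (−0.045), and left 1 profile bin and 1 bin pair in clone 2. For boundaries and blocks of clone 1 the smallest p of this exact test is 0.00926. A single boundary or block cannot pass the adjustment with it, so these counts of 0 do not decide whether the calls hold within runs. In clone 2 it turned the mean insulation (−0.0054), boundaries 4 and 6 (0.078 and −0.051), 40 to 100 kb, 1600 to 3200 kb and beyond 3200 kb (0.019, −0.022 and −0.023) and contact between peak bins (0.020). Equal replicate numbers were not taken to pair the full-length libraries with either clone. The replicate block left boundary 5 in clone 1 called (−0.16, adjusted p = 0.0417, exact permutation test), turned boundary 2 in clone 1 (−0.0025) and boundary 4 and 40 to 100 kb in clone 2 (0.092 and 0.032), and left 0 blocks in clone 1, 6 profile bins in clone 2 and 5 boundaries against Δ(1–265).

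With 1 library left out, clone 2 ranged from −0.024 to 0.00050, −0.029 to 0.0034, −0.034 to 0.0081, −0.023 to 0.0013 and −0.021 to 0.026 at boundaries 1, 2, 4, 5 and 6, and clone 1 from −0.026 to 0.027 at boundary 2. Contact between peak bins ranged from −0.049 to −0.023 in clone 1, where it passed without full-length replicate 3 of run 5 (−0.048), and from −0.028 to 0.0021 in clone 2, positive without its replicate 4. Called bands ranged from 0 to 4 in clone 1, with 2 without that full-length library and 4 without clone 1 replicate 6, and from 0 to 5 in clone 2, with 5 without the same full-length library and 4 without full-length replicate 4 of run 5. Called blocks in clone 2 ranged from 0 to 5, with 5 without full-length replicate 3 of run 5. Profile bins ranged from 22 to 47 in clone 1, with 22 without its replicate 2, and from 2 to 32 in clone 2, with 2 without its replicate 4, 8 without its replicate 1 or 3 and 32 without full-length replicate 4 of run 5. Profile bins between the clones ranged from 4 to 16, with 4 without clone 2 replicate 1, 7 without its replicate 2, and 6 without its replicate 3 or 4 or clone 1 replicate 2. Bin pairs in clone 2 ranged from 0 to 1, with 1 without Δ(1–265) clone 2 replicate 1 or 4.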
